A study of Fragaria vesca with 9 samples.

Results

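The 5 genes described here are 4 named for late steps of anthocyanin synthesis and transport and 1, chalcone isomerase-like, named for an early step, in the fruit of woodland strawberry, Fragaria vesca. They were taken by gene identifier from 34777 listed genes: chalcone isomerase-like FvH4_7g25890, dihydroflavonol 4-reductase FvH4_2g39520, leucoanthocyanidin dioxygenase FvH4_5g01170, anthocyanidin 3-O-glucosyltransferase FvH4_7g33840 and glutathione S-transferase F11 FvH4_1g27460. All 5 were read in 9 poly(A) RNA libraries of fruit at 26 days postanthesis. Of these, 3 came from wild type (WT), 3 from mutant line 1 (Fvmate51-1) and 3 from mutant line 2 (Fvmate51-2). Both lines are mutants of FvMATE51, which the study calls a vacuolar membrane protein. The labels give neither the alleles nor the parent strain, and do not say whether replicates were separate plants or whether a line is 1 clone. The p-values thus reflect variation among these libraries, which could be technical. In RNA taken from fruit, fewer cells of a type and less RNA per cell cannot be told apart.

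Anthocyanins are the red pigments of strawberry. They are built from phenylalanine through chalcones and flavanones to dihydroflavonols, which dihydroflavonol 4-reductase reduces to leucoanthocyanidins. Leucoanthocyanidin dioxygenase, also called anthocyanidin synthase, turns these into coloured anthocyanidins, and a glucosyltransferase adds the sugar that makes them stable. The pigments are then moved into the vacuole, for which some plants use glutathione S-transferases of the F class (TT19 in Arabidopsis, AN9 in petunia) and transporters of the MATE or ABC families. By function, 4 of the 5 genes belong to these late steps. The fifth, chalcone isomerase-like, belongs to the early part of the pathway: such proteins are known in Arabidopsis and hop to assist chalcone synthase and have no isomerase activity of their own. The protein names are the authors' Swiss-Prot matches. They come from pear (dihydroflavonol 4-reductase), apple (leucoanthocyanidin dioxygenase), hop (chalcone isomerase-like), Arabidopsis (F11) and garden strawberry (the glucosyltransferase GT1).

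The 5 genes were among the most abundant transcripts of the fruit, ranking between 30 and 472 of all listed genes in every library. Each was covered by 10740 to 142079 fragments per library, recovered from the deposited values. Counting error was therefore 0.265 to 0.965% of a value, covering counting only. Values are in FPKM, fragments scaled by gene length and by library size, and group values are the mean ± SD of 3 libraries.

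In wild type fruit the order of levels was leucoanthocyanidin dioxygenase, chalcone isomerase-like, F11, glucosyltransferase and dihydroflavonol 4-reductase in 3 of 3 libraries. The listed length behind the value of dihydroflavonol 4-reductase, 3337 bases over a span of 6958, was the longest of the 5 (the others 979 to 1781), and its place in this order rests on that length. In line 1 the reductase stood above the glucosyltransferase in 3 of 3 libraries, the reverse of wild type. In line 2, F11 stood above chalcone isomerase-like in 3 of 3 libraries, again the reverse. Together the genes made up 0.805 ± 0.0321% of all FPKM in wild type. Their share was 0.574 ± 0.0279% in line 1 and 0.393 ± 0.00823% in line 2, and the groups did not overlap.

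**Figure D1:**
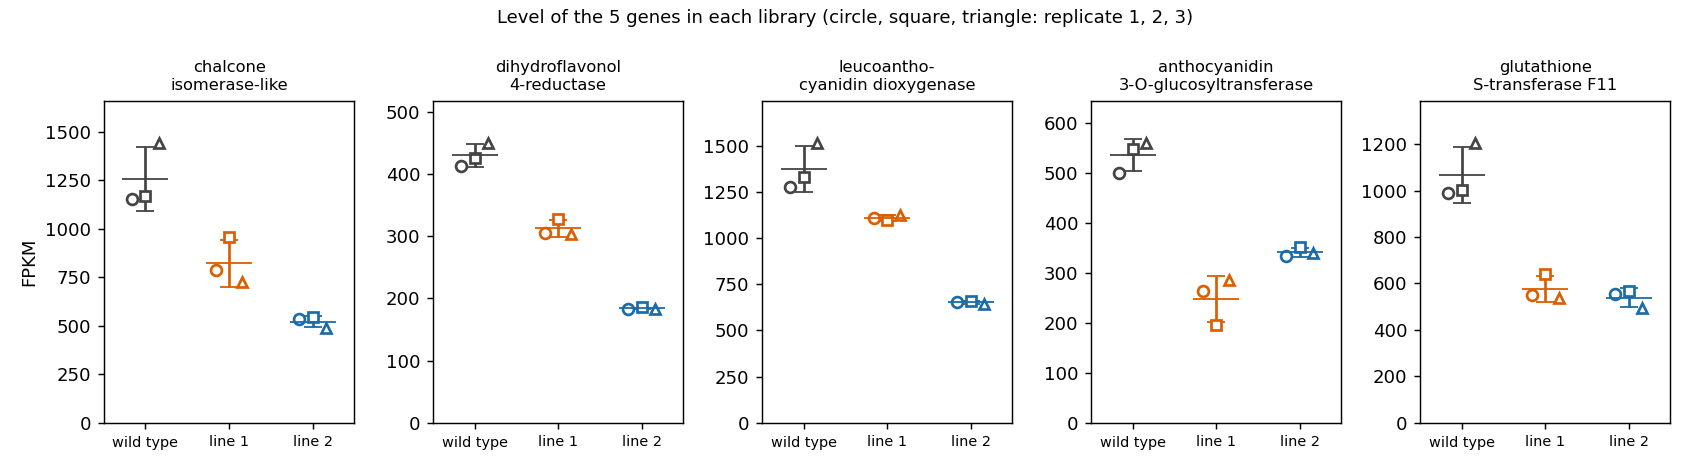
FPKM (vertical axis, from 0) of each of the 5 genes in the 9 libraries, with points for replicates 1, 2 and 3 and bars for the group mean ± SD. Every mutant value lies below every wild type value, as for 12.4% of tested genes. The lines differ in order. The glucosyltransferase is lowest in line 1, and chalcone isomerase-like, the reductase and the dioxygenase are lowest in line 2. F11 overlaps between the lines.

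All 5 genes were lower than wild type in both mutant lines, and 4 of them differed in level between the lines. Chalcone isomerase-like, the reductase and the dioxygenase fell further in line 2, while the glucosyltransferase fell further in line 1. For F11 no difference between the lines passed the test. limma called all 5 lower in line 1 and all 5 lower in line 2 (Benjamini-Hochberg adjusted p under 0.05 over 15890 tested genes). The background was broad: 19.0% of tested genes were called lower in line 1, 15.1% in line 2 and 7.76% in each line. All 6 mutant libraries lay below all 3 wild type libraries for the 5 genes, as they did for 12.4% of tested genes (24.6% for line 1 alone and 23.8% for line 2 alone). Between the lines, 27.6% of tested genes were called in either direction. The share of tested genes in which all 3 groups separate was not computed. Statements below that the groups did not overlap are thus descriptions only. With both lines averaged against wild type, all 5 were lower (limma adjusted p between 2.43e-06 and 0.000143), as were 18.1% of tested genes. Among the 960 tested genes with a mean of at least 100 FPKM, the kind these genes belong to, 40.2% were called lower in line 1 and 29.4% in line 2, with a median log2 change of -0.21 and -0.13.

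Chalcone isomerase-like FvH4_7g25890 (chromosome 7, 19704185 to 19705827, minus strand) read 1150, 1171 and 1444 FPKM in wild type replicates 1, 2 and 3. It read 789, 957 and 723 in line 1 and 534, 544 and 488 in line 2. The 3 groups did not overlap, with wild type highest and line 2 lowest, and line 1 replicate 2 was the highest of its line. The means were 1255 ± 164, 823 ± 121 and 522 ± 30.1, so that line 1 kept 65.6% and line 2 kept 41.6% of the wild type level. On the log2(FPKM + 1) scale the change was -0.61 ± 0.12 (SE) in line 1 (limma adjusted p = 0.00364) and -1.26 ± 0.12 in line 2 (limma adjusted p = 2.89e-05). Line 2 was lower than line 1 by a log2 change of -0.65 ± 0.12 (limma adjusted p = 0.00259).

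Dihydroflavonol 4-reductase FvH4_2g39520 (chromosome 2, 28368322 to 28375279, plus strand) commits the pathway to anthocyanins and catechins. It read 413, 426 and 450.1 FPKM in wild type, 306, 328 and 303 in line 1, and 183, 185 and 183 in line 2. Again the groups did not overlap, and the line 2 libraries were nearly equal. From 430 ± 19.0 in wild type, the mean fell to 312 ± 13.6 in line 1, a log2 change of -0.46 ± 0.07 (limma adjusted p = 0.000528). In line 2 it fell to 184 ± 1.4, 42.8% of wild type and 2.34-fold lower, a log2 change of -1.22 ± 0.07 (limma adjusted p = 3.95e-07). This was a lower adjusted p than that of any of the other 4 genes in either line. The difference between the lines was -0.76 ± 0.07 (limma adjusted p = 1.29e-05).

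Leucoanthocyanidin dioxygenase FvH4_5g01170 (chromosome 5, 713612 to 715504, minus strand) was the most abundant of the 5 in all 9 libraries. It was the only listed gene with that protein name. Its wild type values were 1277, 1329 and 1517 FPKM. Line 1 gave 1108, 1096 and 1128, and line 2 gave 653, 662 and 643. The groups did not overlap, and all 3 line 1 libraries lay between the lowest wild type library and the line 2 libraries. Means were 1374 ± 127, 1111 ± 15.9 and 653 ± 9.19, so line 1 kept 80.8% and line 2 kept 47.5% of wild type. The log2 change in line 2 was -1.07 ± 0.08 (limma adjusted p = 5.14e-06), and line 2 was below line 1 by -0.77 ± 0.08 (limma adjusted p = 5.72e-05).

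In line 1 the change of the dioxygenase was -0.30 ± 0.08 (limma adjusted p = 0.0170), the smallest of the 10 changes against wild type. Of all tested genes 20.1% changed as far or further down in that line, and of the abundant genes 37.9%. The call was lost without line 1 replicate 1 (-0.30, limma adjusted p = 0.0566). It was also lost with quantile normalization, where the change shrank to -0.10 (limma adjusted p = 0.222), with no filter on low values (0.0565) and in a fit of line 1 and wild type alone (0.0686). The change was -0.23 without wild type replicate 3 (limma adjusted p = 0.0170) and -0.19 after scaling all libraries to equal summed FPKM (limma adjusted p = 0.0259).

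Anthocyanidin 3-O-glucosyltransferase FvH4_7g33840 (chromosome 7, 23987519 to 23989245, plus strand) matches GT1 of garden strawberry, the enzyme that adds glucose to anthocyanidins. It stood at 500.4, 548 and 561 FPKM in wild type. In line 1 it read 264, 196 and 285, with replicate 2 lowest, and in line 2 it read 333, 351 and 340. The groups did not overlap here either, but line 1 was the lowest. From a wild type mean of 536 ± 31.7 it went to 248 ± 46.6 in line 1, 46.3% of that level, and to 341 ± 9.02 in line 2, 63.6% of it. The log2 changes were -1.13 ± 0.12 (limma adjusted p = 7.04e-05) and -0.65 ± 0.12 (limma adjusted p = 0.00271).

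The level of the glucosyltransferase was higher in line 2 than in line 1 by 0.48 ± 0.12 on the log2 scale (limma adjusted p = 0.0145), opposite in sign to the 3 genes above. Of all tested genes, 12.2% were called lower and 15.4% higher in line 2 than in line 1 (11.7% and 23.5% of the abundant genes). Without line 1 replicate 2 this difference was 0.32 (limma adjusted p = 0.0119), and without line 2 replicate 2 it was 0.46 (limma adjusted p = 0.0545). Line 1 replicate 2 was also the highest of its line for chalcone isomerase-like, the reductase and F11. It was the library with the largest share of fragments outside the listed genes, 10.1%, against 0.0990 to 4.59% in the other 8, and the part of this in the result was not tested. The last 54 bases of the gene as listed overlap the end of EXPORTIN 1A FvH4_7g33850 on the other strand. Whether fragments were counted by strand is not given in the sources used here. EXPORTIN 1A changed the other way. It rose from a wild type 44.6 ± 6.30 FPKM, reaching 64.7 ± 2.81 in line 1 and 69.6 ± 4.38 in line 2 (log2 changes of 0.54 and 0.64, limma adjusted p = 0.00255 and 0.000886).

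Glutathione S-transferase F11 FvH4_1g27460 (chromosome 1, 19147400 to 19148949, plus strand) read 989, 1003 and 1206 FPKM in wild type. Line 1 read 549, 639 and 536, and line 2 read 556, 567 and 492. Both lines lay far below wild type and overlapped each other. The means were 1066 ± 122, 574 ± 56.4 and 539 ± 40.3, or 53.9% and 50.5% of wild type. The log2 changes were -0.89 ± 0.11 in line 1 (limma adjusted p = 0.000140) and -0.98 ± 0.11 in line 2 (limma adjusted p = 6.60e-05). Between the lines the difference was -0.09, with a 95% interval of -0.33 to 0.14 (limma adjusted p = 0.580).

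**Figure D2:**
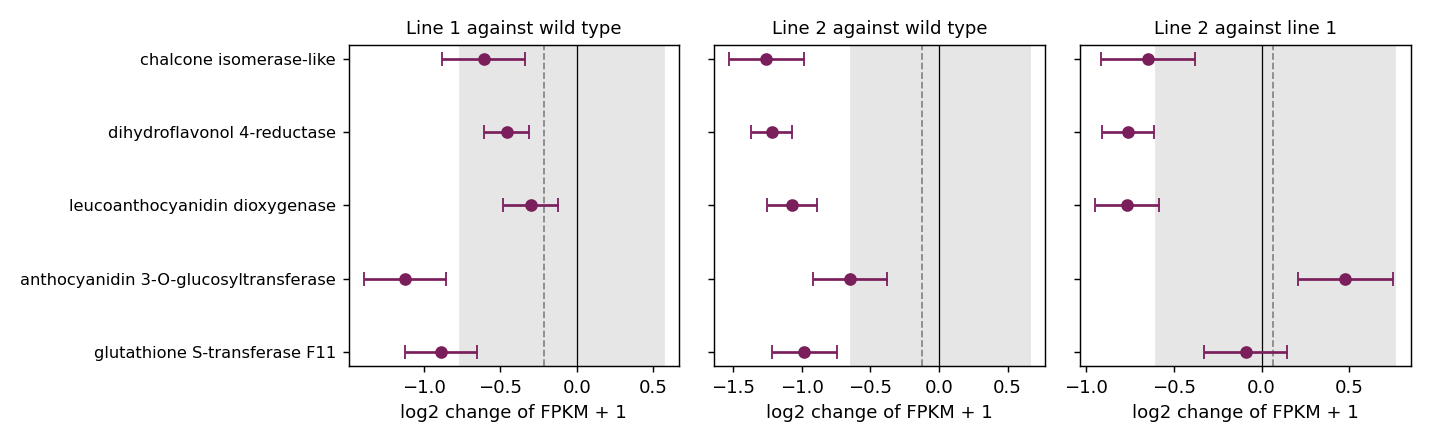
Change of log2(FPKM + 1) with its 95% interval (horizontal axis) for the 5 genes against wild type in each line, and between the lines (line 2 minus line 1). The grey band holds the middle 90% of the 960 tested genes with a mean of at least 100 FPKM and the dashed line is their median. In line 1 the glucosyltransferase and F11 lie outside the band, and in line 2 all 5 do, the glucosyltransferase at its edge.

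Against the abundant genes, the extent of the falls differed by line. In line 2, between 1.04% (chalcone isomerase-like) and 5% (glucosyltransferase) of the 960 abundant genes changed as far or further down. In line 1 the corresponding shares were 1.88% for the glucosyltransferase and 3.65% for F11, but 8.85% for chalcone isomerase-like, 18.3% for the reductase and 37.9% for the dioxygenase. After scaling all libraries to equal summed FPKM, the share of all tested genes called lower in line 1 was 13.3% in place of 19.0%, and the share called higher 21.5% in place of 16.5%. Line 2 against line 1 shifted the other way, to 16.3% lower and 11.1% higher. All 5 genes were still called lower in both lines under that scaling.

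A ratio of 2 genes within a library does not depend on how libraries are scaled. All 10 pairs of the 5 genes were compared in this way, as log2 ratios of FPKM. For mutant against wild type libraries (6 against 3), 0 of 10 ratios passed an exact two-sided permutation test after adjustment over the 10. Before adjustment, 2 did: chalcone isomerase-like over the dioxygenase (p = 0.0238, the smallest the design allows) and the reductase over the dioxygenase (exact p = 0.0476; adjusted p = 0.238 for both). Both of these ratios were lower in the mutants. The test pooled both lines, so it can miss a ratio that moved to opposite sides of wild type in them. A ratio that did not pass is therefore not shown to be unchanged. Taken line by line, 6 of the 10 pairs in line 1 and 8 in line 2 did not overlap wild type. The share of other gene pairs that do so was not computed.

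In 7 of the 10 pairs the 3 line 1 values and the 3 line 2 values did not overlap, each at an exact permutation p of 0.1 (adjusted 0.143), the smallest that 3 against 3 allows. This share is near the background: 60.6% of all 460320 pairs of abundant genes separated the lines in the same way. These were all 7 pairs that hold the glucosyltransferase or F11. The 3 pairs among chalcone isomerase-like, the reductase and the dioxygenase overlapped between the lines. For example, the reductase read 0.778 to 0.825 of the glucosyltransferase in wild type, 1.06 to 1.68 in line 1 and 0.528 to 0.549 in line 2. Wild type thus lay between the lines, on neither side overlapping. The dioxygenase stood 2.43 to 2.71 times above the glucosyltransferase in wild type, 3.96 to 5.60 times in line 1 and 1.89 to 1.96 times in line 2. Chalcone isomerase-like over F11 moved from 1.16 to 1.20 in wild type to 1.35 to 1.5 in line 1 and 0.960 to 0.990 in line 2. By contrast, the reductase over the dioxygenase was 0.297 to 0.323 in wild type, 0.269 to 0.299 in line 1 and 0.280 to 0.285 in line 2.

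**Figure D3:**
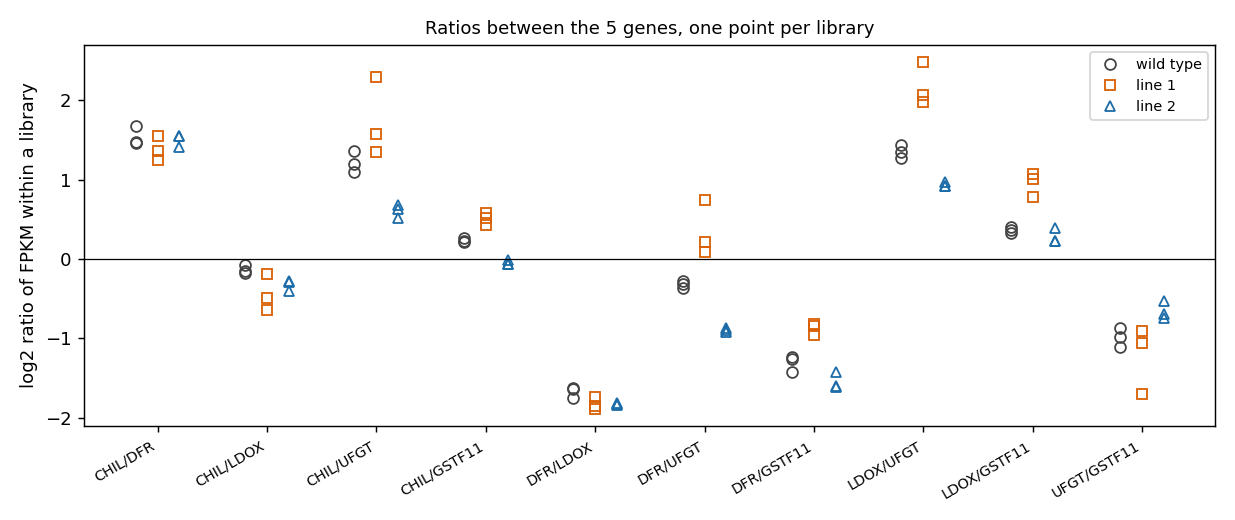
Log2 ratio of FPKM between each pair of the 5 genes (vertical axis), 1 point per library, for wild type, line 1 and line 2. CHIL is chalcone isomerase-like, DFR the reductase, LDOX the dioxygenase, UFGT the glucosyltransferase and GSTF11 the transferase F11. Pairs with UFGT or GSTF11 separate line 1 from line 2, and CHIL/DFR, CHIL/LDOX and DFR/LDOX do not. Of all 460320 pairs of genes with a mean of at least 100 FPKM, 60.6% separate the lines in the same way.

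Over the 9 libraries, which fall into 3 groups and share them for every gene, the reductase and the dioxygenase had a Pearson r of 0.99 on the log2(FPKM + 1) scale. Chalcone isomerase-like had r = 0.98 with the reductase and 0.95 with the dioxygenase. The glucosyltransferase had r between 0.35 (dioxygenase) and 0.78 (F11), and F11 had r = 0.90 with chalcone isomerase-like. Among tested genes with a protein name, those most like the reductase were Erlin-2 FvH4_4g30104, the zinc finger protein ZAT5 FvH4_3g35040 and glutaredoxin-C9 FvH4_3g08470 (r = 0.997, 0.996 and 0.996). ZAT5 and glutaredoxin-C9 were also among the 3 most like the dioxygenase, with the RING-H2 protein ATL2 FvH4_4g18630. For chalcone isomerase-like these were histone H2A.1 FvH4_6g06430, WRKY transcription factor 51 FvH4_1g22820 and gibberellin-regulated protein 4 FvH4_6g48590 (r = 0.99 each).

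The profile of F11 was closest to histone H2A variant FvH4_2g22780, hydroxypyruvate reductase HPR3 FvH4_7g12580 and histone H3.2 FvH4_3g39201 (r = 0.99 each). That of the glucosyltransferase was closest to a chloroplast phosphoglycerate kinase FvH4_3g14960, 3-dehydroquinate synthase FvH4_1g11430 of the shikimate pathway and the sugar transporter ERD6-like 6 FvH4_2g39720 (r = 0.99 each). No flavonoid enzyme was among these nearest genes. With 3 groups, r describes mainly the relative spacing of the group means: between 110 (glucosyltransferase) and 176 (F11) genes had r over 0.95 with each of the 5.

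Paralogs with related protein names stood below their namesakes among the 5 genes. The other dihydroflavonol 4-reductase that could be tested, FvH4_5g04260, stood at 2.09 ± 0.403 FPKM in wild type. It read 1.90 ± 0.118 in line 1 (limma adjusted p = 0.594) and rose to 2.92 ± 0.243 in line 2 (limma adjusted p = 0.0436). Glutathione S-transferase F9 FvH4_6g38760 fell in line 1, from 12.4 ± 2.19 to 1.86 ± 0.0212, and rose in line 2 to 26.7 ± 0.376 (limma adjusted p = 1.41e-07 and 3.57e-05). The F13 gene FvH4_2g25180 stood at 1.61 ± 0.409 in wild type, and its values of 1.96 ± 0.0972 and 1.63 ± 0.117 in the lines did not pass the test (limma adjusted p = 0.259 and 0.914).

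Among glucosyltransferases, anthocyanidin 3-O-glucosyltransferase 5 FvH4_1g13970 fell from 128 ± 6.84 to 75.4 ± 7.18 in line 1 (limma adjusted p = 5.53e-05) and rose to 159 ± 2.67 in line 2 (limma adjusted p = 0.0141). The gene FvH4_1g14000, listed close by under the same name, did likewise at a lower level, from 2.73 ± 0.284 to 1.41 ± 0.0965 and 4.94 ± 0.191 (limma adjusted p = 0.000637 and 0.000411). FvH4_1g13990, of that name and listed between them, did not. It stood at 3.31 ± 0.0785, 3.71 ± 0.855 and 2.41 ± 0.368 (limma adjusted p = 0.537 and 0.0774), and was lower in line 2 than in line 1 (limma adjusted p = 0.0277). If these genes are close copies they can share reads, which would make their separate values uncertain. Their sequences were not compared.

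Beyond the 5 genes, other genes of the flavonoid pathway moved in both directions. A list of 54 other pathway genes was made from words in the descriptions, of which 26 were tested. In line 1, 7 were lower and 3 higher, with a median log2 change of -0.05 beside -0.01 over all tested genes. In line 2, 5 were lower and 8 higher, with a median of 0.11 beside 0.02 (the background of higher calls was 16.5% in line 1 and 15.3% in line 2, and of lower calls 19.0% and 15.1%). Of the 4 listed genes with a mean of at least 100 FPKM, 2 were lower and 0 higher in line 1. In line 2, 3 of these were lower and 1 higher. Their median log2 changes were -0.19 and -0.58, beside -0.21 and -0.13 over the 960 abundant genes, of which 40.2% and 29.4% were called lower. The list also caught 2 fatty-acid-binding proteins by a shared chalcone isomerase domain.

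Enzymes feeding the 5 genes moved in different ways. Flavanone 3-hydroxylase FvH4_1g11810 (listed as naringenin,2-oxoglutarate 3-dioxygenase), which makes dihydroflavonols, fell from 958 ± 122 to 710 ± 86.7 and 455 ± 3.67 FPKM, in the same order as the reductase (limma adjusted p = 0.0133 in line 1 and 4.92e-05 in line 2). A less abundant gene of that step, FvH4_6g39151, fell as well, from 12.7 ± 1.46 to 8.24 ± 2.06 and 8.71 ± 0.913 (limma adjusted p = 0.0154 and 0.0358). Polyketide synthase 1 FvH4_7g01160, with a chalcone and stilbene synthase domain, fell from 927 ± 118 to 610 ± 40.9 and 474 ± 11.7 (limma adjusted p = 0.00109 and 4.18e-05). It lies outside the list, whose chalcone synthase term matched 0 genes, and was chosen after its values were seen. Chalcone-flavanone isomerase 1 FvH4_7g20870 stood at 321 ± 38.8, 337 ± 8.99 and 209 ± 6.05. Its fall in line 2 passed the test (limma adjusted p = 0.000429), its value in line 1 did not (limma adjusted p = 0.522). Phenylalanine ammonia-lyase FvH4_6g16060 gave 298 ± 11.3, 309 ± 51.1 and 202 ± 8.97 (limma adjusted p = 0.00358 in line 2 and 0.797 in line 1). Another gene of that name, FvH4_7g19130, rose in both lines, from 42.6 ± 2.17 to 70.6 ± 11.3 and 162 ± 8.57 (limma adjusted p = 0.000737 and 5.09e-07). The 4-coumarate-CoA ligase gene FvH4_4g09340, whose enzyme activates the coumarate used by chalcone synthase, stood at 27.0 ± 5.76 and 26.1 ± 4.33 in wild type and line 1 (limma adjusted p = 0.872). It rose to 51.2 ± 3.12 in line 2 (limma adjusted p = 0.00148). Cinnamate 4-hydroxylase FvH4_3g40570 averaged 71.0, 68.3 and 56.3 FPKM in wild type, line 1 and line 2. Flavonoid 3'-hydroxylase FvH4_5g14010 averaged 33.3, 37.8 and 25.3. Neither passed the test against wild type in either line.

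Other enzymes draw on the same intermediates. Flavonol synthase 1 FvH4_2g07082 diverts dihydroflavonols to flavonols. From 2.81 ± 0.387 FPKM it fell to 0.792 ± 0.363 in line 1 and rose to 8.57 ± 0.587 in line 2 (limma adjusted p = 0.000228 and 5.92e-05). Anthocyanidin reductase FvH4_5g04220, which diverts anthocyanidins to catechin-type compounds, fell in line 2 from 41.4 ± 4.78 to 29.1 ± 4.10 (limma adjusted p = 0.00811). In line 1 it stood at 33.4 ± 2.54 (limma adjusted p = 0.0632), and the lines did not differ past the test (limma adjusted p = 0.236).

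**Figure D4:**
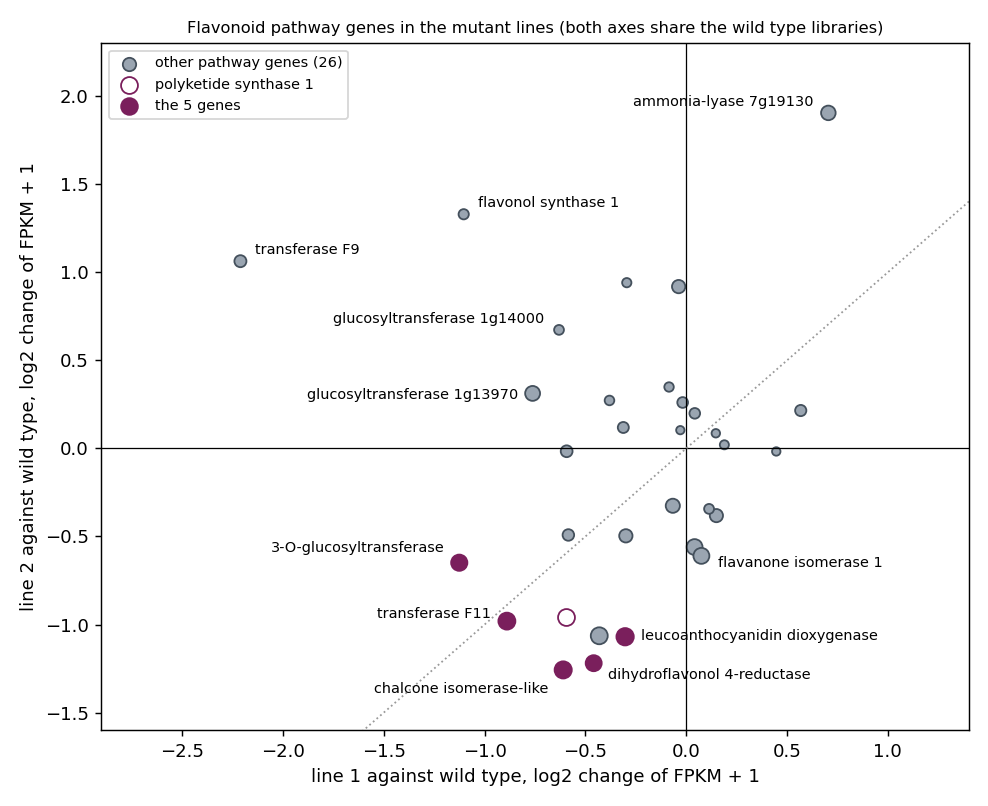
Log2 change of FPKM + 1 in line 1 (horizontal axis) and line 2 (vertical axis) against wild type for the 5 genes, 26 other tested pathway genes and polyketide synthase 1. Larger points have a higher mean FPKM, and the dotted line marks equal change. The 5 genes lie at the lower left, 3 of them below the dotted line, F11 near it and the glucosyltransferase above it, while transferase F9 and flavonol synthase 1 lie at the upper left.

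Known regulators of these enzymes are complexes of a MYB factor, a bHLH factor and the WD40 protein TTG1. Of 28 listed genes named for such regulators, 10 were tested. In line 1, 2 of them were lower and 2 higher, and in line 2, 1 was lower and 2 were higher, shares close to those over all tested genes (19.0% lower and 16.5% higher in line 1, 15.1% and 15.3% in line 2). MYB113 FvH4_1g22020, named for an Arabidopsis activator of anthocyanin synthesis, stood at 44.5 ± 3.67 FPKM in wild type and 42.5 ± 7.87 in line 1 (limma adjusted p = 0.658). In line 2 it fell to 29.1 ± 2.15 (limma adjusted p = 0.00393) and was lower than in line 1 (limma adjusted p = 0.00799). BHLH42 FvH4_2g23700 stood at 32.2 ± 4.19, 29.4 ± 3.34 and 32.5 ± 2.11 and did not pass the test in either line (limma adjusted p = 0.391 and 0.911). TTG1 FvH4_7g32970 was lower in line 1, at 24.1 ± 4.28 against 33.5 ± 6.39 (limma adjusted p = 0.0337), and stood at 28.2 ± 1.84 in line 2 (limma adjusted p = 0.268). The most abundant of the 28, MYB1 FvH4_5g32460, stood at 188 ± 10.7, 219 ± 30.9 and 195 ± 12.2. It did not pass the test in either line (limma adjusted p = 0.131 and 0.705). Nor did FvH4_7g23750 (limma adjusted p = 0.221 and 0.552) and FvH4_1g08370 (limma adjusted p = 0.845 and 0.0515), also named MYB1. A less abundant gene of that name, FvH4_6g12440, rose in both lines, from 7.89 ± 0.166 to 13.1 ± 0.543 and 11.6 ± 0.608 (limma adjusted p = 9.02e-05 and 0.000580). A GLABRA 3 gene, FvH4_5g02520, did so as well, from 2.27 ± 0.138 to 2.95 ± 0.158 and 3.95 ± 0.0940 (limma adjusted p = 0.0336 and 0.000514).

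Of the genes listed next to the 5, 1 fell in both lines. FvH4_1g27452, without a described product and 861 bases from F11, fell from 2.42 ± 0.328 FPKM to 1.22 ± 0.0917 and 0.352 ± 0.246 (limma adjusted p = 0.00882 and 6.33e-05). Beside the reductase, mannan endo-1,4-beta-mannosidase 7 FvH4_2g39510 stood at 508 ± 25.9, 555 ± 15.4 and 396 ± 12.3, and its fall in line 2 passed the test (limma adjusted p = 0.00343). On its other side, ornithine transcarbamylase FvH4_2g39540 stood at 51.7 ± 1.80, 44.1 ± 1.18 and 45.6 ± 2.48 (limma adjusted p = 0.0262 in line 1 and 0.0685 in line 2). ATL72 FvH4_7g25880, beside chalcone isomerase-like, stood at 2.41 ± 0.498, 1.33 ± 0.125 and 2.45 ± 0.201 (limma adjusted p = 0.00655 and 0.902). Beside the glucosyltransferase, ADP-ribosylation factor 1 FvH4_7g33830 stood at 70.3 ± 7.62, 64.7 ± 7.40 and 64.5 ± 1.95 (limma adjusted p = 0.366 and 0.385). Both neighbours of the dioxygenase and 1 neighbour of chalcone isomerase-like were too low to be tested.

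Libraries held 31587667 to 51649115 fragments in listed genes. Markers of ripening fruit were a list of pectin-degrading enzymes, expansins and aroma enzymes. Of 33 tested, 10 were lower, 3 higher and 20 not called in line 1, and 14 were lower, 3 higher and 16 not called in line 2. Over all tested genes, the background for this and the next lists, 19.0% were lower and 16.5% higher in line 1, and 15.1% and 15.3% in line 2. The summed level of the list was 17655 to 18920 FPKM in wild type, 13781 to 15145 in line 1 and 15869 to 16170 in line 2. The furaneol-forming reductase FvH4_6g50700, an enzyme of strawberry aroma, was the most abundant of them and fell from 6849 ± 834 to 5306 ± 193 and 5271 ± 141 (limma adjusted p = 0.0285 in each line). The next, polygalacturonase FvH4_6g41380, which cuts pectin, fell from 4703 ± 69.0 to 3707 ± 4.09 in line 1 (limma adjusted p = 0.0117) and stood at 4714 ± 62.0 in line 2 (limma adjusted p = 0.980). For seed and achene names, 23 of 63 were lower and 11 higher in line 1, and 31 lower and 6 higher in line 2. Their summed level was 5844 to 6956 FPKM in wild type, 6688 to 7488 in line 1 and 4796 to 4874 in line 2. Much of this sum came from genes not named for seeds. The lipid-transfer proteins FvH4_6g09980 and FvH4_6g09970 averaged 1673 and 961 in wild type, 2616 and 1661 in line 1, and 1373 and 655 in line 2. NDR1/HIN1-like protein 1 FvH4_6g20170 averaged 1343, 917 and 1221. The sum is thus no measure of seed content. Of 14 green tissue genes, 3 were lower and 2 higher in line 1, and 2 lower and 0 higher in line 2, at a summed 105 to 143 FPKM over all libraries. Among these lists 48 of 141 ripening genes, 15 of 114 seed genes and 10 of 48 green tissue genes were listed at 0 in every library. The part of these tissues and of ripening stage in the fall of the 5 genes was not tested.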

How the data were processed

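Values were deposited by the authors as FPKM per gene and library, with gene lengths, positions and Swiss-Prot matches. Per the submitters' processing notes, the tools included featureCounts 2.0.6, StringTie 2.2.3, HISAT2 2.2.1 and fastp (roles not given). The genome build is not given in the sources used here, and positions are as listed. No sequences of the 5 genes were used here. FPKM times length came out as whole multiples of a step per library (100% within 0.02 of a whole number), which gave fragment numbers. Within each group, replicates differed by more than counting noise (chi-square per gene averaging 4.45 to 58.2).

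A gene was tested where 3 or more of the 9 libraries reached 1 FPKM, as log2(FPKM + 1), with limma 3.58.1 (R 4.3.3), with a mean-dependent prior and all 9 libraries in a single fit. The 4 contrasts set each line and their average against wild type, and the lines against each other, two-sided, with Benjamini-Hochberg adjustment over all 15890 genes. Changes on this scale understate those of low genes. Ratios were tested by exact permutation (scipy 1.17.1). On simulated data for both lines against wild type, with 50 genes planted per fold among 15890, 78% were recovered at 1.5-fold and 94% at 2-fold, and 11 of 15690 unchanged genes were called. The simulated noise was normal and independent for each gene and library, as limma assumes. Deviations shared by many genes of a library were not simulated, so these numbers do not measure the error of the calls here.

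Genes were named by list, as paralogs, pathway steps, regulators, the 3 most alike and the nearest neighbours. Members and lists were chosen with earlier results of these data known, so their counts are descriptions. The seed list also catches lipid-transfer and NDR1/HIN1-like proteins by words in the description, and the green list a polygalacturonase. Alternatives were pseudocounts, filters, scalings, the replicate number as a block, voom on recovered fragments and leaving out libraries.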

Additional observations from a re-analysis of the deposited data

Results flagged for a closer look

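In 4 of the 5 genes the level differed between the mutant lines, by the limma test of line 2 against line 1. The log2 difference was -0.65 for chalcone isomerase-like FvH4_7g25890, -0.76 for dihydroflavonol 4-reductase FvH4_2g39520 and -0.77 for leucoanthocyanidin dioxygenase FvH4_5g01170. It was 0.48 for the glucosyltransferase FvH4_7g33840, the opposite sign. Of all tested genes 27.6% were called in this contrast. No explanation of these differences was tested.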

How the results depend on the processing

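Over 21 alternative settings, 410 of 415 values of the 5 genes kept their direction and their side of the threshold, 5 lost their call and 0 changed direction. The 5 were the dioxygenase in line 1 (4 settings) and the glucosyltransferase between the lines (1 setting), and the cause was not tested. Leaving out 1 library at a time, 4 to 5 of the 5 genes were called in line 1, 5 in line 2 and 3 to 4 between the lines. Of all 15890 tested genes, 4177 to 5382, 3344 to 5303 and 3289 to 5335 were called in these fits. Without both wild type replicate 3 and line 1 replicate 2, the libraries that stood apart from their groups, 5, 5 and 4 were called. Over all tested genes the numbers were then 5964, 5666 and 5962. Replicate numbers gave no sign of pairing: deviations of same-numbered libraries correlated at -0.262 to 0.164, and 1 of 9 libraries matched best with its own number. With 3 libraries per group and 2 that stood apart, this check cannot exclude pairing. With the replicate number as a block, limma called 4668 genes in line 1, 4019 in line 2 and 3794 between the lines (5645, 4832 and 4390 without it), and all calls of the 5 genes held. On recovered fragments, voom called 5933, 5022 and 4415. With a minimum mean of 5 FPKM, 10 of 16 tested other pathway genes were called between the lines, in place of 17 of 26.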
